A study of Mus musculus with 2 samples.

Results

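Wnt2, Wnt9b, Wnt4, Wnt5a, Rspo1 and Rspo3 were the genes described here, 4 Wnt ligands and 2 R-spondins that the liver uses to set the zones of its lobule. They were taken by name from the gene tables of 2 libraries of non-parenchymal cells (NPCs), where they were 6 of 21722 genes listed in either table and 6 of 19 listed Wnt ligand and R-spondin genes. The libraries came from 1 normal and 1 fibrotic liver, both of male C57BL/6 mice of 8 weeks. The fibrotic mouse was dosed with carbon tetrachloride (CCl4), diluted to 15% with olive oil and given at 0.6 µl for each g, 2 times a week over 6 weeks, and the normal mouse was given the oil; livers were taken 48 hours after the last dose. Each group was 1 library, so no difference between them has a replicate check, no test was made, and mouse, dissociation and treatment cannot be told apart.

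Wnt ligands are lipid-modified secreted proteins that need the carrier Wntless (Wls) to leave the cell, and that bind Frizzled receptors with the co-receptors Lrp5 and Lrp6. R-spondins bind Lgr receptors and keep the ligases Rnf43 and Znrf3 from removing Frizzled, which raises the response of a cell to Wnt. In the liver lobule, endothelial cells of the central vein and of the neighbouring sinusoids are the known source of Wnt2, Wnt9b and Rspo3, and β-catenin signalling in the hepatocytes around that vein keeps on pericentral genes such as Glul, Cyp2e1 and Axin2. Wnt4 and Wnt5a are best known for signalling through other routes and for roles in mesenchyme and epithelium, and Rspo1 is known for its role in ovary development.

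The genes lie on 5 mouse chromosomes (GRCm38, GENCODE annotation). Wnt2 spans chr6:17988940-18030585 on the minus strand and Wnt9b chr11:103727364-103749821 on the minus strand. Wnt4 spans chr4:137277489-137299726 and Rspo1 chr4:124986430-125009099, both on the plus strand. Wnt5a spans chr14:28504750-28527448 on the plus strand and Rspo3 chr10:29452416-29535867 on the minus strand. Promoter windows from RefSeq (GRCm38.p6) were matched for 4 of the 6 genes, and the sequences of the endothelial ligands Wnt2 and Wnt9b, whose levels in vein and sinusoid are compared below, are shown 5′ to 3′ on the gene's strand. The 250 bases before each start were searched on both strands for GATAA, the core letters bound by GATA factors, for CCGGAA, a core of ETS sites, and for CTTTGAT, a core of TCF/LEF sites. These letters occur in 22.6%, 12.0% and 3.21% of 32851 mouse promoters of the same length. Only the Wnt2 window held any of them, GATAA on the opposite strand at bases 40 to 36 and 9 to 5 before the RefSeq start, printed as TTATC in capitals in both short runs. The RefSeq start of Wnt2 lies inside the annotated gene, so the longer Wnt2 run is the stretch of the window upstream of it.
Wnt2 upstream, chr6:18030586-18030695, minus strand: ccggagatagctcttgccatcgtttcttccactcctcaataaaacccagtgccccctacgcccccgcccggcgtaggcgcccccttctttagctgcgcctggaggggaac
Wnt2 first GATAA, chr6:18030460-18030489, minus strand: ccctTTATCgctcgctgggctcgtcttttg
Wnt2 second GATAA, chr6:18030446-18030458, minus strand: aactTTATCagtg
Wnt9b promoter, chr11:103749822-103750071, minus strand: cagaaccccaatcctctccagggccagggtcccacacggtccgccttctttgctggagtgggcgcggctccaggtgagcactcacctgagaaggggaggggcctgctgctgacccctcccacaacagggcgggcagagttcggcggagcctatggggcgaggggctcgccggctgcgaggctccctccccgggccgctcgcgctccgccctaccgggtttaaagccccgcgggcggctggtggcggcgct
G and C made up 62.7% of the longer Wnt2 run and 72.0% of the Wnt9b window.

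The normal library held 44062632 unique molecular identifiers (UMIs) in 8130 cells and the fibrotic library 53288463 UMIs in 6437 cells, with medians of 4144.5 and 5619 UMIs per cell. The libraries shared 15 cell barcodes. After filtering, 7471 and 6132 cells were clustered within each library without the 62 genes of the Wnt and R-spondin pathway lists. Clusters were named from markers outside these lists, so no ligand helped to define a class. The genes of the hepatocyte zone lists were not left out of clustering. Among liver sinusoidal endothelial-like (LSEC-like) cells, the normal and fibrotic libraries gave 436 and 245 zone 1-like (periportal) cells, 600 and 420 zone 2/3-like cells, and 846 and 618 cells whose sub-clusters carried no zone. Other classes central to these genes were 181 and 98 central-vein-like, 163 and 109 portal-vessel-like, 64 and 115 hepatic stellate cell/myofibroblast-like (HSC/MF-like), 45 and 90 portal fibroblast-like (PF-like), 45 and 76 mesothelial-like and 235 and 90 cholangiocyte-like cells. A level below is the gene's UMIs per 10000 UMIs of a class, with an exact Poisson 95% interval that covers counting error only, and a ratio carries an exact conditional 95% interval of the same kind.

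Labels of these classes held up unevenly. In central-vein-like cells Vwf was 14.96 in the normal and 2.20 in the fibrotic library, Selp was 5.92 and 2.77, Thbd was 9.92 and 18.5, and the sinusoidal gene Lyve1 was 0.518 and 3.00, so the fibrotic cells so named carried less of the vein markers Vwf and Selp and more of a sinusoidal one. HSC/MF-like cells had the stellate gene Lrat at 14.9 and 16.6, with Col1a1 at 1.80 and 61.9. Their clusters were led by stellate genes such as Colec11, Reln and Lrat, but against other mesenchymal cells immune genes led 2 sub-clusters. These were the normal one (Ighm, Mzb1, Jchain and Ccl5), which no marker named and which kept the name of its cluster, and the fibrotic one of 67 cells (S100a8, S100a9 and Il1b). The part of immune RNA in their values was not tested. PF-like cells had Lrat at 0.139 in the normal and 4.80 in the fibrotic library. Mesothelial-like cells had Msln at 18.6 and 3.69. In the fibrotic library a sub-cluster of 29 cells, 28 of them in the mesothelial-like class, had Msln at 0.792 and no mesothelial marker among its leading genes. The ratios of Wnt4 and Rspo1 in this class are given with and without it. All other values of fibrotic mesothelial-like cells include it. Hepatocyte RNA was present in every class and differed between libraries, with Alb at 56.0 and 4.45 in central-vein-like cells and 51.5 and 4.22 in HSC/MF-like cells. Its part in the ratios below was not tested.

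**Figure D1:**
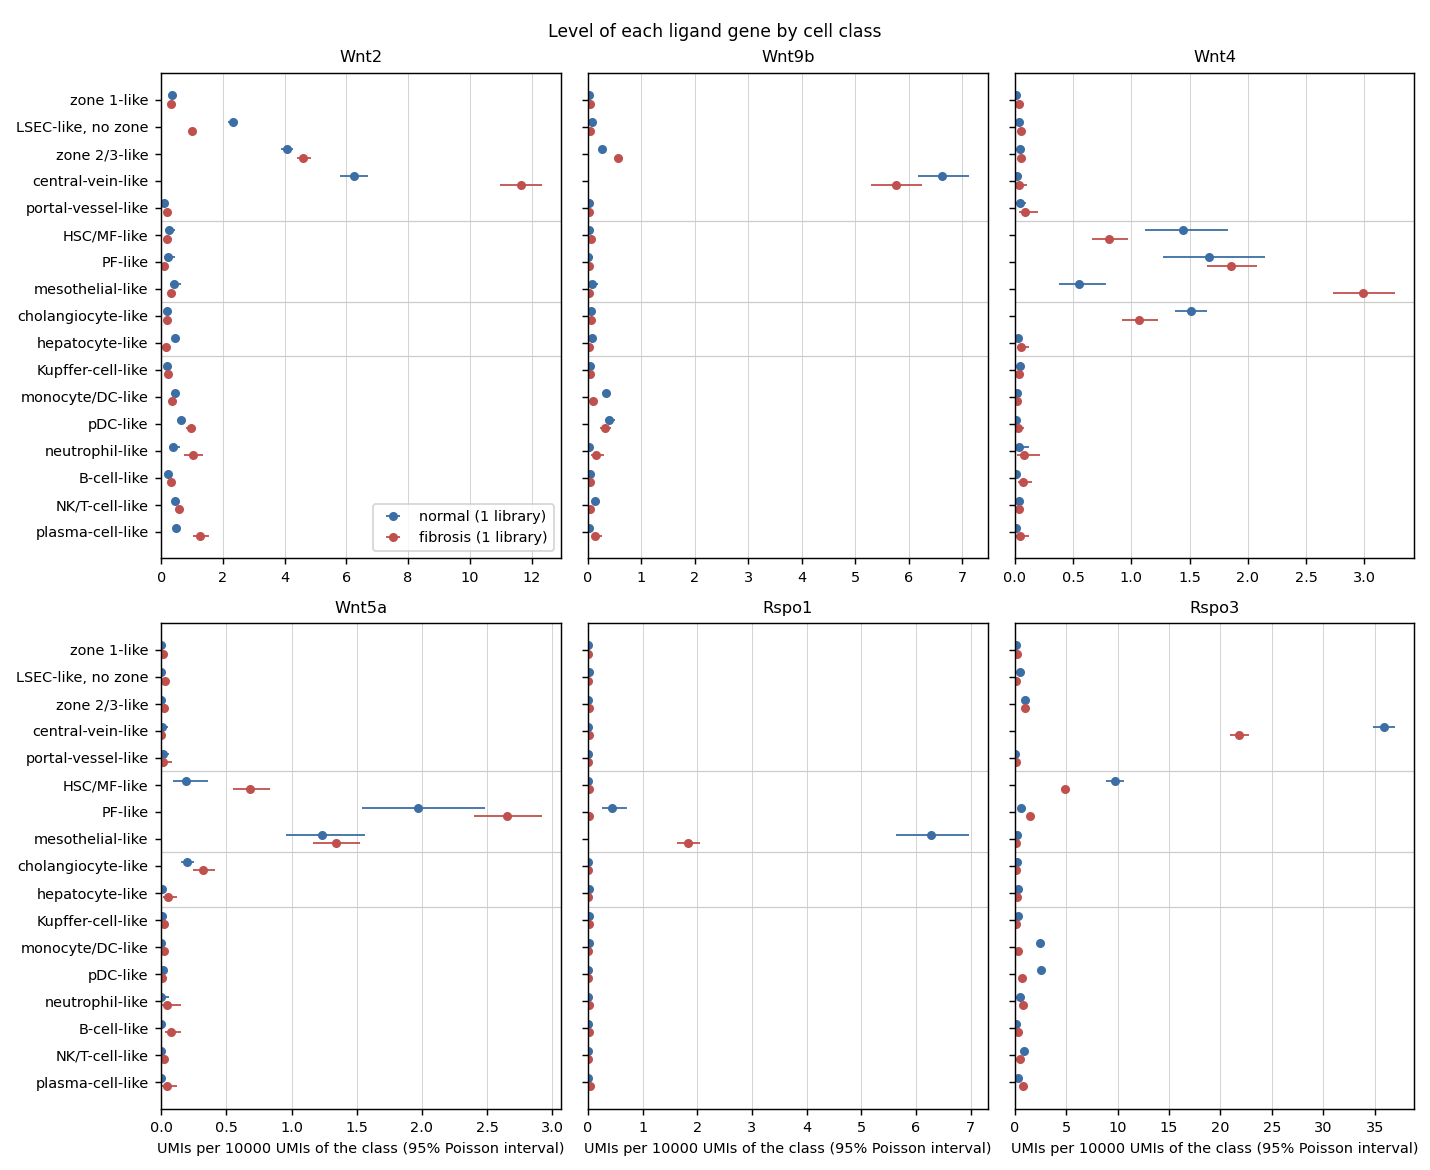
Level of each of the 6 genes (x axis, UMIs per 10000 UMIs of the class) in 17 cell classes (y axis) of the normal and the fibrotic library, 1 library each; dots are levels and bars exact Poisson 95% intervals. Wnt2, Wnt9b and Rspo3 peak in central-vein-like cells of both libraries, Wnt4 and Wnt5a are above 0.5 in mesenchymal and epithelial classes alone, and Rspo1 stands out in mesothelial-like cells at 6.27 and 1.83.

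Wnt2, a ligand of the canonical pathway, was a gene of the whole pericentral endothelium. Its level in central-vein-like cells was 6.24 (5.79 to 6.71, 711 UMIs) in the normal and 11.6 (10.98 to 12.3, 1160 UMIs) in the fibrotic library. Zone 2/3-like cells followed at 4.07 (3.87 to 4.27) and 4.61 (4.39 to 4.84). Zone 1-like cells were at 0.362 and 0.308, which did not exceed the 0.370 and 0.514 of lymphoid (B, T and NK-cell-like) cells, a class not expected to make Wnt2. Portal-vessel-like cells were lower still at 0.0826 and 0.184. In normal liver the order was central vein, zone 2/3, no zone and then the rest, with no overlap of intervals down to the no-zone cells. In fibrotic liver the no-zone LSEC-like cells were at 0.984, and their interval overlapped those of plasma-cell-like cells at 1.27 and neutrophil-like cells at 1.02.

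Wnt9b, the other canonical ligand of this endothelium, was by contrast mostly a gene of the central vein. Its level there was 6.62 (6.16 to 7.11, 755 UMIs) in the normal and 5.76 (5.30 to 6.25, 574 UMIs) in the fibrotic library. Zone 2/3-like cells had 0.254 (104 UMIs) and 0.569 (200 UMIs), and zone 1-like cells had 4 and 8 UMIs in all. Lymphoid cells were at 0.107 and 0.0395. In the normal order plasmacytoid DC-like cells at 0.401 and monocyte/DC-like cells at 0.334 came between the vein and zone 2/3, with intervals that overlapped each other, and their few Rspo3-rich cells are described below. Central-vein-like cells held 60.6% of all Wnt9b UMIs of the normal library and 43.8% of the fibrotic one, while they held 15.1% and 19.6% of those of Wnt2. LSEC-like cells outside the vein held 55.6% and 37.6% of the Wnt2 UMIs and 11.004% and 17.5% of those of Wnt9b. Cells in sub-clusters that also carried markers of another class, set aside as mixed, held 23.0% of the Wnt2 UMIs and 20.6% of the Wnt9b UMIs in fibrosis.

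Rspo3, the R-spondin of the central vein, had its highest level in that endothelium and its next in stellate cells. Its level in central-vein-like cells was 35.9 (34.8 to 37.0, 4090 UMIs) in the normal and 21.8 (20.9 to 22.8, 2175 UMIs) in the fibrotic library. HSC/MF-like cells had 9.72 (8.85 to 10.7, 459 UMIs) and 4.88 (4.51 to 5.26, 663 UMIs). These were the first and second classes of 17 in both libraries, with no overlap of intervals. PF-like cells had 0.583 and 1.52 and zone 2/3-like cells 1.0005 and 0.954, against 0.151 and 0.284 in B-cell-like and 0.664 and 0.456 in all lymphoid cells. Central-vein-like cells held 50.7% and 30.8% of the Rspo3 UMIs of the libraries. HSC/MF-like cells held 5.68% and 9.38%, and mixed cells 7.65% and 37.2%. LSEC-like cells held 631 and 446 UMIs and monocyte/DC-like cells 913 and 397. Both counts were above that of HSC/MF-like cells in the normal library and below it in the fibrotic one.

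**Figure D2:**
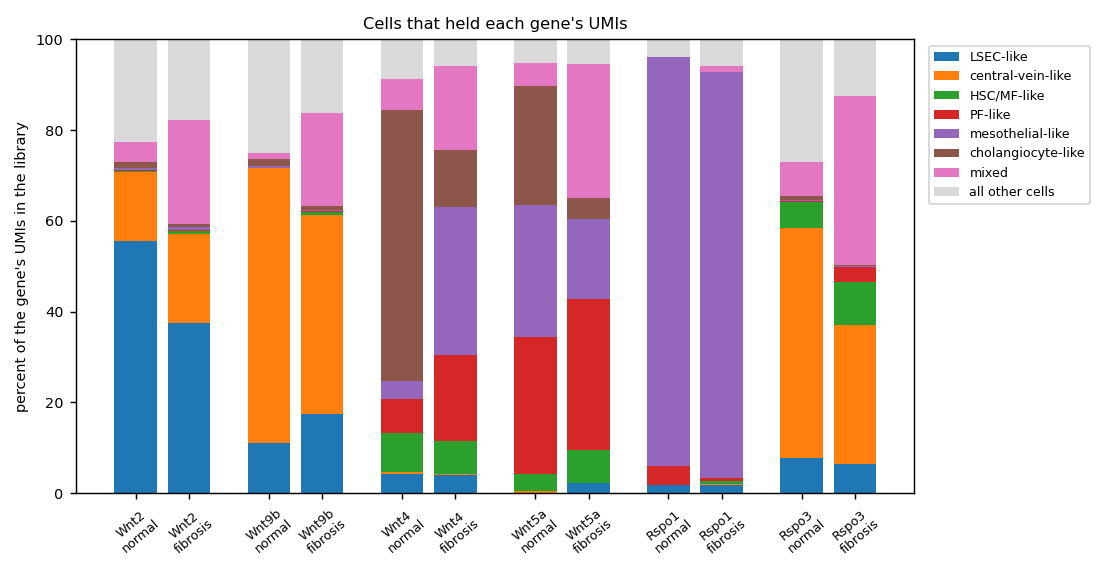
Stacked bars of where each gene's UMIs were found, in percent of the gene's UMIs in the library (y axis, from 0 to 100), for each gene in the normal and the fibrotic library (x axis); colours are cell classes and grey is all other cells. Central-vein-like cells hold 60.6% and 43.8% of Wnt9b but 15.1% and 19.6% of Wnt2, and mesothelial-like cells hold 90.2% and 89.6% of Rspo1.

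Many central-vein-like cells carried all 3 endothelial genes, and whether this exceeded what the class levels alone give was not tested. With each cell thinned to 1000 UMIs to remove depth, Rspo3 was found in 86.2% (exact binomial interval 80.3 to 90.9) of normal and 75.5% (65.8 to 83.6) of fibrotic central-vein-like cells. Wnt2 was found in 40.9% and 66.3% of them and Wnt9b in 36.5% and 37.8%. In B-cell-like cells the same shares were 1.17% and 2.27% for Rspo3, 2.35% and 4.03% for Wnt2, and 0.503% and 0.504% for Wnt9b. Wnt9b in zone 1-like cells was at 0 of 436 and 0 of 245 thinned cells. Without thinning, all 3 genes were detected in 141 of 181 (77.9%) normal and 82 of 98 (83.7%) fibrotic central-vein-like cells, at medians of 5950 and 9116.5 UMIs per cell. The same was true of 39 of 600 (6.50%) and 41 of 420 (9.76%) zone 2/3-like cells and of 0 of 436 and 1 of 245 zone 1-like cells. The median central-vein-like cell carried 19 and 20 UMIs of Rspo3, 3 and 4 of Wnt9b, and 3 and 11 of Wnt2.

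The zone contrasts were made within each library, where mouse and preparation are shared. Of all genes with 20 or more UMIs, 8.03% in the normal and 7.24% in the fibrotic library were at least 1.5 times higher in zone 2/3-like than in zone 1-like cells, and Wnt2, Wnt9b and Rspo3 were among them in both. Wnt4 was among them in the normal library alone, on 17 and 4 UMIs, with an interval that held 1 (0.925 to 11.6). Wnt2 was 11.2 times (9.16 to 13.9) higher in the normal and 14.96 times (11.6 to 19.6) higher in the fibrotic library. Wnt9b was 17.3 times (6.57 to 64.9) and 14.5 times (7.24 to 34.2) higher, on 4 and 8 UMIs in zone 1-like cells. Rspo3 was 5.95 times (4.38 to 8.25) and 5.27 times (3.74 to 7.61) higher. Its zone 1-like levels of 0.168 and 0.181 were below those of lymphoid cells given above, and the part of free RNA in them was not tested. With coarser endothelial sub-clusters, the fibrotic ratios became 5.87 for Wnt2 and 2.69 for Wnt9b. Without the 3 richest cells of each zone they became 25.0 and 100.4, and the normal Wnt9b ratio 62.5.

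The step from the sinusoid to the vein separated the 3 genes. Central-vein-like cells exceeded zone 2/3-like cells 1.53 times (1.40 to 1.68) for Wnt2 in the normal and 2.52 times (2.34 to 2.72) in the fibrotic library. For Wnt9b the ratios were 26.1 (21.2 to 32.4) and 10.1 (8.60 to 11.9), and for Rspo3 35.9 and 22.9. The shares of all genes past 1.5 times in this direction were 13.3% and 11.7%. Against portal-vessel-like cells, the other large-vessel endothelium, Wnt2 was 75.5 and 63.1 times higher in central-vein-like cells, Wnt9b 401 and 375 times on 2 and 1 portal UMIs, and Rspo3 621 and 203 times on 7 portal UMIs in each library, where 12.1% and 14.5% of all genes were at least 1.5 times higher. Wnt2 thus had its larger ratio inside the sinusoid and Rspo3 its larger ratio at the vein in both libraries, while the intervals of the 2 Wnt9b ratios overlapped in each.

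A second view ordered LSEC-like cells by the zone markers and cut the order into 5 equal groups, from the most zone 1-like to the most zone 2/3-like, with central-vein-like cells left out. Wnt2 was 0.151, 0.660, 2.04, 3.79 and 5.50 along this order in the normal and 0.182, 0.520, 1.29, 2.65 and 5.40 in the fibrotic library. It climbed at every step, and its last group exceeded its first 36.4 times (25.7 to 53.5) and 29.7 times (21.5 to 42.5). Rspo3 was 0.132, 0.320, 0.312, 0.492 and 1.66 in the normal and 0.172, 0.158, 0.191, 0.237 and 1.27 in the fibrotic library, so most of its climb came in the last step. Wnt9b was 0.0236, 0.0200, 0.0460, 0.138 and 0.398 in the normal and 0.0343, 0.0298, 0.0577, 0.215 and 0.707 in the fibrotic library. Its first 3 groups did not differ beyond their intervals, and the last 2 stood above them. From the last group to the central-vein-like cells, Wnt2 gained 1.13 times (1.03 to 1.24) in the normal and 2.16 times (1.99 to 2.34) in the fibrotic library, against 16.7 and 8.14 times for Wnt9b and 21.6 and 17.2 times for Rspo3.

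**Figure D3:**
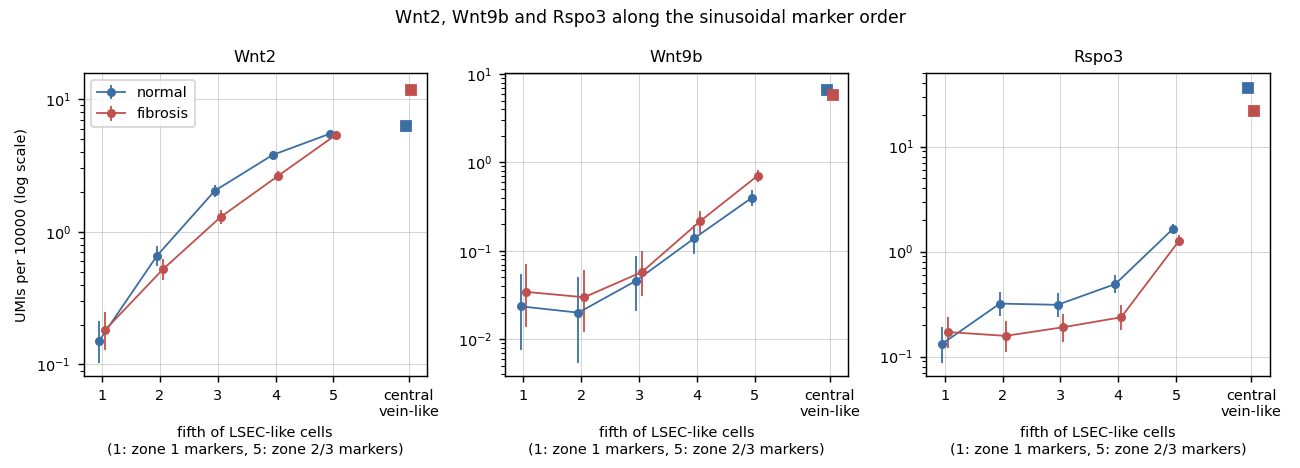
Levels of Wnt2, Wnt9b and Rspo3 (y axis, UMIs per 10000 UMIs, log scale) in 5 equal groups of LSEC-like cells ordered by zone markers and, at the right, in central-vein-like cells; lines join the groups of one library and bars are Poisson 95% intervals. Wnt2 climbs through all 5 groups, from 0.151 to 5.50 in the normal library, whereas Wnt9b and Rspo3 jump at the vein.

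Single sub-clusters showed the same order. In each library 1 zone 2/3-like sub-cluster, of 193 and 145 cells, carried most of the Rspo3 and Wnt9b of its zone, with Wnt2 at 6.54 and 7.55, Wnt9b at 0.733 and 1.41 and Rspo3 at 2.91 and 2.35. The other zone 2/3-like sub-clusters had Wnt2 at 2.13 to 3.73 in the normal and 2.64 to 3.43 in the fibrotic library, with Rspo3 no higher than 0.157 in any. Within the normal central-vein-like cells, a sub-cluster of 120 cells with Kit at 7.47 and Vwf at 6.27 had Rspo3 at 37.7, Wnt2 at 6.80 and Wnt9b at 5.19. The other 61 cells, with Kit at 0.523 and Vwf at 29.8, had Rspo3 at 32.7, Wnt2 at 5.28 and Wnt9b at 9.08. The Vwf-high cells thus carried more Wnt9b and somewhat less of the other 2. The 98 fibrotic central-vein-like cells formed 1 sub-cluster, with Kit at 6.34 and Vwf at 2.20.

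**Figure D4:**
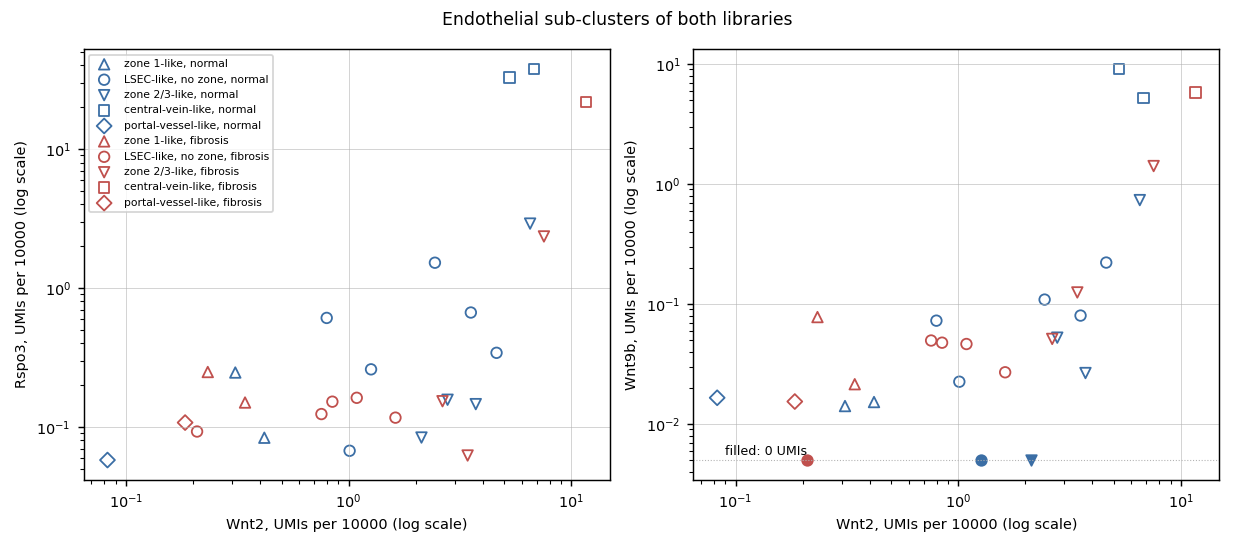
Each point is an endothelial sub-cluster, with Wnt2 on the x axis and Rspo3 (left) or Wnt9b (right) on the y axis, all in UMIs per 10000 UMIs on log scales; symbols are classes, colours the 2 libraries, and filled symbols on the dotted line sub-clusters with 0 UMIs. Wnt2 spreads over the sinusoidal sub-clusters, and the central-vein-like ones stand apart in Wnt9b (5.19 to 9.08) and Rspo3 (21.8 to 37.7).

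Between the libraries, Rspo3 was lower and Wnt2 higher in fibrotic central-vein-like cells, and Wnt9b was nearly level. Of 9458 genes with 20 or more UMIs in this class, 18.9% were at least 1.5 times higher and 16.3% at least 1.5 times lower in fibrosis, so a gene past this mark is common. The fibrotic over normal ratio was 0.608 (0.577 to 0.641) for Rspo3, 1.87 (1.70 to 2.05) for Wnt2 and 0.870 (0.779 to 0.971) for Wnt9b. Per cell rather than per UMI, these ratios were 0.982, 3.01 and 1.40, because fibrotic central-vein-like cells held more UMIs each, so the lower Rspo3 was a lower share of the cell's RNA and not fewer UMIs per cell. Rspo3 was 0.579 times the normal level when the Vwf-high normal sub-cluster was left out. With the pathway genes kept for clustering, its ratio was closer to the normal level and not past 1.5 times, as listed at the end. With coarser endothelial sub-clusters the fibrotic class grew to 230 cells and its Rspo3 ratio was 0.303.

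In LSEC-like cells as a whole Wnt2 was 0.806 times (0.761 to 0.853) and Rspo3 0.670 times (0.592 to 0.758) the normal level, and Wnt9b was 1.59 times (1.28 to 1.98) it. Per cell the ratios were 1.25, 1.04 and 2.46, so the direction for Wnt2 and Rspo3 depended on the scale. Of all genes in these cells 14.1% were past 1.5 times upward and 14.5% downward. The LSEC-like levels of Rspo3, 0.602 and 0.403, were below those of lymphoid cells and above the B-cell-like ones. Among the lymphoid cells, 12 normal NK/T-cell-like cells held 301 of 363 UMIs of their class, and 3 fibrotic ones 61 of 123. Wnt9b in LSEC-like cells, at 0.131 and 0.208, stood beside 0.107 and 0.0395 in lymphoid cells. Zone 2/3-like cells had ratios of 1.13 (1.06 to 1.22) for Wnt2, 2.24 (1.76 to 2.87) for Wnt9b and 0.953 (0.823 to 1.10) for Rspo3, with 12.4% of genes past 1.5 times upward. No-zone cells had lower ratios, 0.422 (0.378 to 0.470) for Wnt2, 0.504 (0.276 to 0.908) for Wnt9b and 0.281 (0.211 to 0.370) for Rspo3, with 14.3% of genes that far down and a median gene 0.10 higher on the log2 scale. Fibrotic no-zone cells held 2.06 times the UMIs per cell, and per cell these ratios were 0.870, 1.04 and 0.579. The no-zone classes also differed in the endothelial markers Kit (3.90 and 2.38) and Lyve1 (3.69 and 12.2). Hepatocyte genes were among the leading genes of normal no-zone sub-clusters (Itih2 and Mup21, Glyat and Hao1, or Crp and F12), and DNA replication genes (Cdt1, Mcm5 and Cdc6) led 1 fibrotic sub-cluster of 101 cells. Wnt2 ran from 0.798 to 4.62 over the 6 normal and from 0.209 to 1.63 over the 5 fibrotic sub-clusters. The part of these differences in the ratios was not tested. Zone 1-like cells had ratios of 0.851 (0.611 to 1.18) for Wnt2 and 1.08 (0.679 to 1.70) for Rspo3, which counting error alone covers.

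These ratios depend on the border drawn between sinusoid and vein. With LSEC-like and central-vein-like cells counted together, the ratio was 0.980 (0.934 to 1.03) for Wnt2, 0.869 (0.789 to 0.957) for Wnt9b and 0.535 (0.510 to 0.562) for Rspo3. Of these 3 genes only Rspo3 passed 1.5 times per UMI, as did 14.9% of genes in that direction. Wnt4 (36 and 63 UMIs) and Wnt5a (1 and 27 UMIs) passed it upward on few UMIs. With coarser sub-clusters the Wnt9b ratio of LSEC-like cells turned to 0.310 and that of Wnt2 became 0.537, past 1.5 times downward. Over the same joined cells UMIs per cell were 1.55 times higher in fibrosis. Per cell, Wnt2 was 1.52 times, Wnt9b 1.35 times and Rspo3 0.829 times the normal value. On that scale Wnt2 passed 1.5 times and Rspo3 did not.

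Rspo3 was also lower in stellate cells. The HSC/MF-like ratio was 0.502 (0.445 to 0.566), where 14.4% of 9158 genes were at least 1.5 times lower and 21.7% higher. After thinning, 57.8% (44.8 to 70.1) of normal and 26.1% (18.3 to 35.1) of fibrotic cells held the gene, at medians of 5 and 2 UMIs per unthinned cell. Per cell the ratio was 0.804. Nearly all fibrotic cells lay in 2 sub-clusters, the first of 67 cells with Col1a1 at 19.1 and Rspo3 at 3.29 (2.82 to 3.82), and the other of 56 cells, a few of them PF-like, with Col1a1 at 116 and Rspo3 at 5.78 (5.32 to 6.27). Rspo3 was thus not lower in the sub-cluster with more collagen. Mesenchymal sub-clusters set aside as mixed had 6.18 and 5.83 in the normal and 1.64 to 4.22 in the fibrotic library, and the ratio was 0.464 when they were counted as HSC/MF-like. In PF-like cells Rspo3 moved the other way, with a ratio of 2.61 (1.67 to 4.29) on 21 and 238 UMIs, or 5.67 per cell. In that class 26.8% of genes were at least 1.5 times higher, and the stellate gene Lrat also stood higher. Rspo3 was 16.7 times higher in HSC/MF-like than in PF-like cells of the normal library and 3.21 times higher in the fibrotic one, where 23.4% and 12.2% of genes were at least 1.5 times higher.

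In several blood-lineage classes most Rspo3 UMIs sat in few cells. In normal monocyte/DC-like cells its level of 2.46 came from 26 of 458 cells with 5 or more UMIs, which held 878 of 913 UMIs (96.2%), Vwf at 9.78 and Wnt9b at 2.96. The other cells of that class had Rspo3 at 0.105 and Vwf at 0.310. In normal plasmacytoid DC-like cells, 15 of 202 cells held 395 of 418 UMIs (94.5%) with Vwf at 7.15. In fibrotic monocyte/DC-like cells, 9 of 1030 cells held 268 of 397 UMIs (67.5%). Cells of immune and epithelial classes below 5 UMIs had Rspo3 at 0.0738 to 0.255 in the normal and 0.0572 to 0.383 in the fibrotic library, and the 12 Rspo3-rich NK/T-cell-like cells of the normal library had Vwf at 8.52. Vwf was not high in every such group. It was at 0 UMIs in the 3 normal plasma-cell-like cells that held 33 of 43 UMIs, and at 0.357 in the 3 fibrotic NK/T-cell-like cells. In B-cell-like cells few UMIs sat in such cells, 5 of 27 in the normal and 0 of 27 in the fibrotic library. The 26 monocyte/DC-like cells had a median of 15349 UMIs, against 7211 in the other cells of their class, and whether they were doublets was not tested.

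Wnt4, a ligand of kidney and reproductive tract development, was a gene of mesenchyme and bile duct and not of endothelium. Its normal levels were 1.66 (1.27 to 2.14) in PF-like, 1.51 (1.38 to 1.65) in cholangiocyte-like cells, and HSC/MF-like cells had 1.44 (1.12 to 1.83), levels that did not differ beyond their intervals. Mesothelial-like cells had 0.554 (0.376 to 0.786). A single PF-like cell held 30 of the 60 UMIs of its class. In the fibrotic library the order was mesothelial-like at 2.99 (2.73 to 3.27), PF-like at 1.85, cholangiocyte-like at 1.07 and HSC/MF-like at 0.809. LSEC-like cells had 0.0324 and 0.0533, near the 0.0273 and 0.0486 of lymphoid cells.

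The mesothelial ratio of Wnt4 was 5.40 (3.75 to 8.03), on 31 and 494 UMIs. In this class 30.8% of genes were at least 1.5 times higher in fibrosis, and the median gene was 0.20 higher on the log2 scale. Without the Msln-low sub-cluster of 29 cells, all but 1 of them in the class, the ratio was 3.78. That sub-cluster had Wnt4 at 4.09, against 2.09 in the 48 cells with Msln at 6.21. The thinned share of mesothelial-like cells with Wnt4 was 6.67% and 20.3%, against 0.189% and 0.281% of lymphoid cells. Wnt4 was lower in HSC/MF-like cells, at 0.562 times (0.412 to 0.772), and 0.403 without the fibrotic cell that held 35 of 110 UMIs, and its ratio per cell was 0.9003. In level it was 0.706 times (0.594 to 0.837) in cholangiocyte-like cells. In PF-like cells it was 1.11 times (0.840 to 1.49), but 2.11 times (1.45 to 3.19) without the normal cell that held 30 of 60 UMIs, and 2.42 times per cell. Cholangiocyte-like cells held 59.8% of the Wnt4 UMIs of the normal library and 12.6% of the fibrotic one, where they were fewer, and mesothelial-like cells 3.93% and 32.5%.

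Wnt5a, the classic ligand of non-canonical Wnt signalling, followed the fibroblasts. PF-like cells had 1.97 (1.54 to 2.49) in the normal and 2.65 (2.40 to 2.92) in the fibrotic library, and mesothelial-like cells 1.23 (0.959 to 1.56) and 1.34 (1.17 to 1.53). Their ratios were 1.35 (1.04 to 1.76) and 1.09 (0.825 to 1.44), and 2.92 and 1.90 per cell. The PF-like ratio lay past 1.5 at a clustering resolution of 0.4 (1.60), without likely doublets (1.57), without the 3 richest cells of each library (1.65) and after thinning (2.14). HSC/MF-like cells had 9 UMIs, a level of 0.191, in the normal and 93 UMIs, a level of 0.684, in the fibrotic library. The ratio was 3.59 (1.81 to 8.09), or 5.75 per cell. Within the fibrotic cells it was 0.478 (0.310 to 0.706) in the sub-cluster with less and 0.916 (0.739 to 1.12) in that with more Col1a1. Cholangiocyte-like cells had 0.198 and 0.322, a ratio of 1.62 (1.11 to 2.36), where 13.4% of genes were that far up.

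Wnt5a was not detected in normal LSEC-like cells, with 0 UMIs in 1882 cells, which allows a level of up to 0.00286 (taking 3 UMIs as the limit of a count of 0). The fibrotic LSEC-like cells had 27 UMIs, a level of 0.0244 (0.0161 to 0.0355), and lymphoid cells went from 0.00170 to 0.0365. The fibrotic LSEC level was therefore no higher than that of cells not known to make the gene. Wnt4 and Wnt5a were found together in 57 of 90 fibrotic PF-like, 41 of 76 fibrotic mesothelial-like and 13 of 115 fibrotic HSC/MF-like cells, against 8 of 45, 11 of 45 and 4 of 64 in the normal library, at lower depth.

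Rspo1 was nearly restricted to 1 class. Mesothelial-like cells, the sheet that covers the liver, had a level of 6.27 (5.63 to 6.96, 351 UMIs) in the normal and 1.83 (1.63 to 2.05, 303 UMIs) in the fibrotic library, and held 90.2% and 89.6% of its UMIs. PF-like cells had 16 and 2 UMIs, 0.444 and 0.0128. No other of the 17 classes passed 0.0415. In normal cholangiocyte-like cells it was at 0 UMIs, which by the same limit of 3 UMIs allows up to 0.00960.

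The mesothelial ratio of Rspo1 was 0.292 (0.24999 to 0.342), and 0.418 without the 29 Msln-low cells. In this class 15.4% of genes were at least 1.5 times lower. The Msln-low sub-cluster had Rspo1 at 0.874, the 48 other cells at 2.62. The thinned share with the gene was 42.2% (27.7 to 57.8) and 14.9% (7.66 to 25.0), against 0.0629% and 0.281% of lymphoid cells, whose median depth was lower. Wnt4 and Rspo1 thus moved in opposite directions in this class, and the sub-cluster with the higher Wnt4 had the lower Rspo1. The mesothelial marker Msln was also lower in fibrosis, at 18.6 and 3.69, and its part was not tested.

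**Figure D5:**
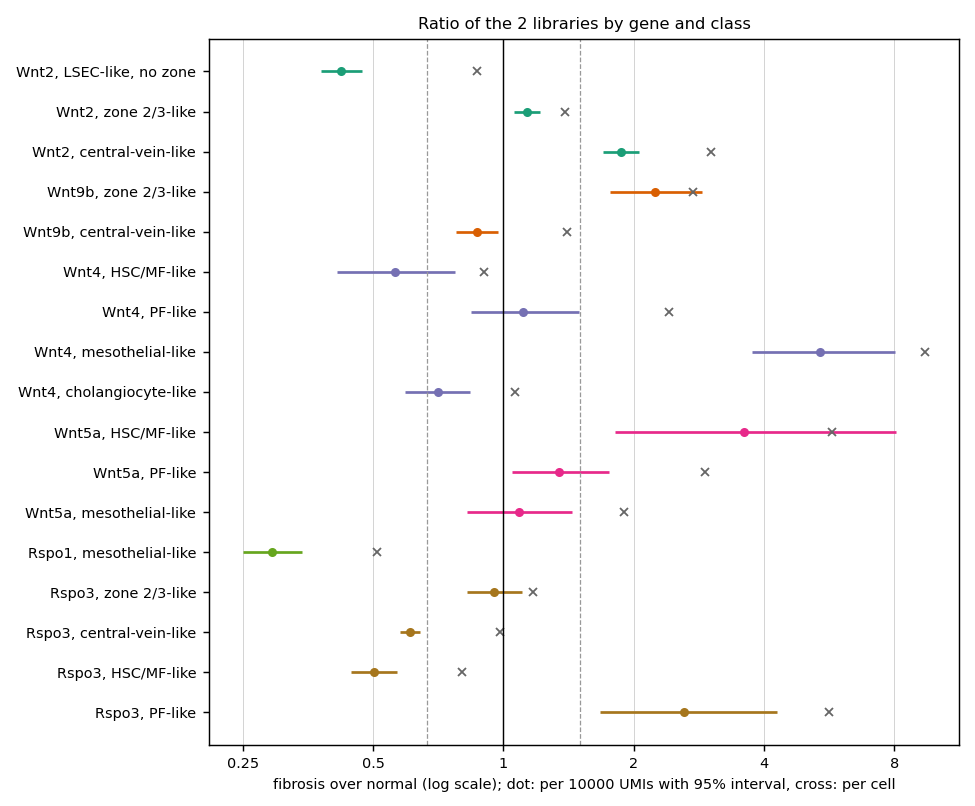
Ratio of the fibrotic over the normal library (x axis, log scale) for each gene with at least 20 UMIs and a level of at least 0.5 in either library (y axis), in sinusoidal, central-vein-like, mesenchymal, mesothelial-like and cholangiocyte-like classes; the dashed lines mark 1.5 times either way, dots are ratios per 10000 UMIs with exact 95% intervals for counting error, and crosses are ratios of UMIs per cell. In mesothelial-like cells Wnt4 lies far to the right at 5.40 and Rspo1 far to the left at 0.292, and the cross of Rspo3 in central-vein-like cells lies near 1, at 0.982.

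The genes that release and receive these ligands were described from fixed lists. Wls, the carrier that secretes Wnts, was 1.96 and 2.26 in LSEC-like cells, 1.84 and 3.01 in HSC/MF-like cells, a ratio of 1.63 (1.29 to 2.08), and 2.36 and 4.02 in PF-like cells, a ratio of 1.70 (1.36 to 2.16). Porcn, which adds the lipid to Wnts and is the other gene of that list, was lower in LSEC-like cells, at 0.0572 and 0.0190, and also in central-vein-like and cholangiocyte-like cells. Of 15 Frizzled and co-receptor genes, 9 were measured in LSEC-like cells and 2 were higher, Fzd4 and Fzd7. Fzd4, a receptor for several Wnts on endothelium, was 2.28 and 3.42, a ratio of 1.502 (1.43 to 1.58). Lrp6, the co-receptor, was 0.737 times (0.692 to 0.785) the normal level there. The median over the 9 genes was 0.970, beside 28.6% of all genes past 1.5 times in either direction. In mesothelial-like cells 2 of 13 were higher and 6 lower, beside 30.8% and 15.4% of all genes, with Fzd2 at 1.77 and 0.430. Ryk, a Wnt5a receptor, was 3.98 and 6.10 in HSC/MF-like and 2.66 and 4.08 in PF-like cells, both ratios of 1.53. Of the 5 R-spondin receptor and ligase genes, 2 were measured in LSEC-like cells and Lgr4 was lower, beside 14.5% of all genes.

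Of the 11 listed secreted Wnt inhibitors, 5 were measured in PF-like cells, 2 higher and 3 lower in fibrosis, beside 26.8% and 16.9% of all genes. Sfrp1, a soluble Wnt binder, was 18.6 (669 UMIs) and 0.313 (49 UMIs), a ratio of 0.0169 (0.0123 to 0.0225). Sfrp2 was 1.25 and 0.00639, the latter on 1 UMI. Frzb, a related binder, was 0.0832 on 3 UMIs and 1.69 on 265, a ratio of 20.3 (6.88 to 99.2), and 0.932 and 1.86 in HSC/MF-like cells. Dkk3 was 1.33 and 2.27 in PF-like and 0.466 and 1.52 in HSC/MF-like cells, but lower in LSEC-like cells, at 0.285 and 0.0732. In LSEC-like cells 3 inhibitors were measured, with Frzb higher and Dkk3 and Notum lower, beside 14.1% and 14.5% of all genes. The PF-like cells of both libraries also differed in Lrat, as given above, and its part in these values was not tested.

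Target genes of the pericentral signal were read in the few hepatocyte-like cells left after the low-speed spins, 750 and 146. These classes were not alike, with Alb at 632 and 226 and medians of 1442.5 and 2036 UMIs per cell. In the normal library 623 cells came from a cluster led by Oat and Rgn. A fibrotic cluster of 612 cells, led by immunoglobulin genes, Cyp3a11 and Cps1, had Alb at 22.2 and stayed unnamed and outside the class. The part of these differences in the values below was not tested. Of the 10 pericentral genes, 5 were higher and 5 lower, with a median ratio of 1.49, and 33.7% and 15.2% of all genes passed 1.5 times in these directions. Glul, the glutamine synthetase of the cells next to the vein, was 4.94 and 3.10, beside 4.81 and 7.41 in LSEC-like cells, where it was 1.54 times higher and not lower. Cyp2e1 was 8.96 and 5.94. Cyp1a2 was 1.65 and 6.78. Of the 10 periportal genes, 1 was higher and 7 lower, with a median of 0.249. In LSEC-like cells 1 of the 10 pericentral genes was higher and 6 lower, with a median of 0.467, and all 10 periportal genes were lower, with a median of 0.0701, beside 14.1% of all genes higher and 14.5% lower, so these values moved in cells of other classes as well, and what share of the hepatocyte-like values is free RNA was not tested. Of the 6 feedback targets of the pathway, 4 were measured in hepatocyte-like cells, where Axin2 and Tbx3 were higher and Nkd1 lower, with a median ratio of 2.02. Nkd1 was 1.82 and 1.44 in HSC/MF-like cells, a ratio of 0.792 (0.611 to 1.03).

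Genes with the most similar profile were sought over 34 profiles, 17 classes in each of 2 libraries, among 5707 genes that reached 1 per 10000 in a class. The profiles of one library share depth and free RNA, so Pearson's r is a description. Wnt2 was nearest to Kit (0.939), the receptor of stem cell factor, then to Lhx6 (0.890) and Ramp3 (0.865). Wnt9b was nearest to Lhx6 (0.947), Ramp3 (0.907) and Amigo2 (0.864). Kit, Lhx6 and Amigo2 were on the zone 2/3 marker list. Rspo3 had no gene as near, with Rnf165 at 0.854, Samd5 at 0.768 and Lhx6 at 0.747. Wnt4 was nearest to Gata6 (0.947), Snhg18 (0.946) and Bicc1 (0.943), and Wnt5a to Loxl1 (0.962), Tgfb3 (0.956) and Mmp23 (0.954), with Loxl1 a crosslinker of elastic matrix. Rspo1 was nearest to the mesothelial marker Lrrn4 (0.981), Nkain4 (0.980) and Pkhd1l1 (0.980). Lhx6 and Ramp3 thus stood near both Wnt2 and Wnt9b.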

How the data were processed

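Single-cell 3′ libraries (10x Chromium v3) of liver NPCs were analysed from 1 normal and 1 fibrotic mouse. NPCs were freed by collagenase perfusion, and hepatocytes were removed by slow spins. The authors deposited UMI counts per gene and cell, made with Cell Ranger 3.0.1 on mm10. The counts are whole numbers and were not normalized.

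From these counts, cells with under 10% mitochondrial UMIs and over 200 genes were kept (7471 of 8130 and 6132 of 6437). Each library was clustered alone with scanpy 1.11.5 and leidenalg 0.10.2, on 2000 variable genes, 10 principal components and 20 neighbours. The resolution was 0.8, and 1.2 for endothelial and 0.8 for mesenchymal sub-clusters. The 62 pathway genes were left out of clustering, and the hepatocyte zone genes were not. Classes were named from marker lists. The resolution of the endothelial sub-clusters was chosen after the data were seen. No doublets were removed in the reported values, although the study's methods excluded them by Scrublet. All members were named, the pathway genes by list, and the 3 genes nearest to each member by Pearson's r over log2 levels plus 0.1. A gene counted as higher or lower when its ratio passed 1.5 times with at least 20 UMIs over both libraries. A count of 0 was given the limit of 3 UMIs. UMIs per cell ran from 898 to 75847 and from 815 to 116430, and intervals (scipy 1.17.1) cover counting error only. The code for the ratios was checked on simulated counts. The members and all lists were chosen with earlier results of these data known. Promoter windows for Rspo3 and Wnt5a were not used here.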

Additional observations from a re-analysis of the deposited data

Results flagged for a closer look

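Some genes had ratios of the fibrotic over the normal library on opposite sides of 1.5 times in different classes, and with 1 library per group the difference between the classes was not tested. Wnt2 was 1.87 times in central-vein-like and 0.422 times in LSEC-like cells without a zone, where the ratio per cell was 0.870 and the markers Kit (3.90 and 2.38) and Lyve1 (3.69 and 12.2) also differed between the libraries. Wnt4 was 5.40 times in mesothelial-like and 0.562 times in HSC/MF-like cells, or 0.9003 per cell. Rspo3 was 2.61 times in PF-like cells, or 5.67 times per cell. Against this, it was 0.608 times in central-vein-like and 0.502 times in HSC/MF-like cells, or 0.982 and 0.804 times per cell. Samples far from others of their group could not be looked for with 1 library each.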

How the results depend on the processing

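Over 13 ratios, 136 values under other settings were computed: 79 stayed within the counting interval of the reported ratio and the others moved beyond it. The cause of the moves was not tested. In 3 cases the value lay on the other side of 1, all in LSEC-like cells: Wnt9b at 0.310 with endothelial sub-clusters at a resolution of 0.8 and at 0.869 with LSEC-like and central-vein-like cells counted together, and Wnt2 at 1.25 as UMIs per cell. The coarser sub-clusters, the joined count and the ratios without named sub-clusters or single cells were chosen after seeing the data. In the lists that follow, the fibrotic over normal ratios are those of Wnt2 and Wnt9b in LSEC-like, Rspo3 in central-vein-like or HSC/MF-like, Wnt4 and Rspo1 in mesothelial-like and Wnt5a in PF-like cells, the zone ratios are zone 2/3-like over zone 1-like, and the vein ratios are Rspo3 in central-vein-like over LSEC-like cells.

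With the coarser sub-clusters Wnt2 was 0.537, Rspo3 in the vein 0.303, the Wnt2 zone ratios 8.91 (normal) and 5.87 (fibrotic), the fibrotic Wnt9b zone ratio 2.69 and the fibrotic vein ratio 83.5. With the joined count Wnt2 was 0.980 and Rspo3 0.535. As UMIs per cell, Wnt9b was 2.46, Rspo3 0.982 in the vein and 0.804 in HSC/MF-like cells, Wnt4 9.44, Wnt5a 2.92, Rspo1 0.511, and the vein ratios 67.4 and 63.8. Thinned to 1000 UMIs, Wnt2 was 0.949, Wnt9b 1.998, Rspo3 0.565 in the vein and 0.331 in HSC/MF-like cells, Wnt4 3.65, Wnt5a 2.14, the Wnt2 zone ratios 19.6 and 24.4, and the fibrotic vein ratio 44.7. With the pathway genes kept for clustering, Wnt9b was 2.21, Rspo3 0.747 in the vein and 0.423 in HSC/MF-like cells, the normal Wnt2 zone ratio 4.90, and the vein ratios 81.4 and 65.5. As a mean over cells, Wnt2 was 0.855, Rspo3 in HSC/MF-like cells 0.368, the normal Wnt2 zone ratio 14.0, and the vein ratios 54.3 and 39.8. At a mitochondrial limit of 5%, Wnt2 was 0.714 and Wnt9b 2.18. At a resolution of 0.4, Wnt2 was 0.726, Rspo3 in HSC/MF-like cells 0.390, the normal Wnt2 zone ratio 15.9 and the normal vein ratio 41.5. At 1.2, Rspo3 in HSC/MF-like cells was 0.395 and the normal vein ratio 52.3. With the lymphoid level subtracted, Wnt2 was 0.704 and Wnt9b 7.23. Without the 3 cells richest in the gene, the Wnt2 zone ratios were 14.1 and 25.0, the fibrotic Wnt9b zone ratio 100.4 and the fibrotic vein ratio 60.8. With the 5% highest doublet scores removed, the vein ratios were 53.8 and 61.2. With zones as equal groups by marker level, the normal Wnt2 zone ratio was 16.4. Without the Msln-low sub-cluster, Rspo1 was 0.418.

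No value could be had for 19 settings: a mitochondrial limit of 5% left too few or no cells of several classes, doublet removal left no normal HSC/MF-like class, and subtracting or thinning left no UMIs of zone 1-like or LSEC-like cells to divide by. No paired analysis was possible because each group was 1 library. Depth limits Wnt9b in zone 1-like cells and Wnt5a and Rspo1 in endothelium, and cell number limits every class of under 100 cells.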
